A study of Mus musculus with 6 samples.

Results

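The carbonic anhydrases are a family of zinc enzymes and related proteins, and 10 of their genes were described in mouse acute myeloid leukemia with and without PPARA, a nuclear receptor that is activated by fatty acids: Car1, Car2, Car3, Car4, Car5b, Car8, Car9, Car11, Car12 and Car13. They were taken by gene symbol from the 30142 genes that had a probe set of their own on the arrays, and each had 1 probe set. Car2 was chosen by its difference in signal between Ppara-/- and Ppara+/+ leukemia on these same arrays, so that difference is given as a description. No p is given for it, and nothing rests on it. The SEs and intervals of differences, that of Car2 included, come from limma's moderated fit. That fit draws on the spread of all genes, so they do not show the spread of 1 gene alone. The other 9 were added as its relatives. A further 6 genes of the family were measured too (Car5a, Car6, Car7, Car10, Car14 and Car15) and serve for comparison.

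Gene expression had been measured on 6 microarrays, 3 of Ppara-/- leukemia and 3 of Ppara+/+ leukemia. Donor cells of either genotype had been infected with a retrovirus (MSCV-MLL-AF9-IRES-GFP) that carries the fusion oncogene MLL-AF9 together with green fluorescent protein (GFP), so both groups express MLL-AF9 from the virus and differ in the Ppara allele. The leukemias were passed to secondary recipients, and their bone marrow cells were sorted for GFP before RNA was extracted. Strain, age and sex of the donors and recipients are not in the labels. Nor is it stated that each replicate came from its own recipient or its own primary leukemia, so a p-value here reflects the variation among 6 samples that may be partly technical.

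Carbonic anhydrases convert carbon dioxide and water to bicarbonate and a proton, and back. By this reaction they set the pH of cytosol, mitochondria or the space outside the cell, and they supply ions to bicarbonate and proton transporters. The active enzymes differ in place: Car1, Car2, Car3, Car7 and Car13 are cytosolic, Car5a and Car5b are mitochondrial, Car4, Car9, Car12, Car14 and Car15 are held at the cell surface and Car6 is secreted, whereas Car8, Car10 and Car11 encode related proteins that lack the enzyme activity. In blood and marrow, CAR2 is best known from red cells and from osteoclasts, the bone-resorbing cells of the macrophage lineage, where it supplies the protons that dissolve bone.

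All values are log2 array signals, and a signal of 1 gene cannot be set against that of another as an RNA level. The negative-control probe sets were taken by their names, and what they match was not checked. Their medians were 4.63 to 4.99 on the Ppara-/- arrays and 4.67 to 5.16 on the Ppara+/+ arrays. Their 95th percentiles were 7.91 to 8.20 and 8.01 to 8.23. Only 11.4% to 14.3% of the named genes lay above that percentile on an array, so a lower signal does not show that RNA is absent. The highest negative-control median was that of Ppara+/+ replicate 1 and the next that of Ppara-/- replicate 2. Ppara itself was at 5.29, 5.05 and 5.23 on the Ppara-/- arrays and at 4.87, 5.19 and 5.18 on the Ppara+/+ arrays, which overlap, and since the files do not say which exons its probes match, this does not check the genotype. Of 19 measured markers of myeloid leukemia, 13 lay above the 95th percentile of the negative controls on every array, among them Mpo (myeloperoxidase), at 11.00 to 11.95 in the Ppara-/- samples and 11.34 to 11.94 in the Ppara+/+ samples.

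Car2, which encodes the fast cytosolic carbonic anhydrase, had a signal of 4.90, 4.83 and 5.13 in the 3 Ppara-/- samples and of 7.34, 7.86 and 8.38 in the 3 Ppara+/+ samples. Every Ppara-/- sample was low, every Ppara+/+ sample was high, and the groups were far from overlapping. The means were 4.95 ± 0.16 in Ppara-/- and 7.86 ± 0.52 in Ppara+/+ leukemia (SD, n = 3). The pooled SD of Car2 was 0.38, above the median of 0.15 over all genes. The log2 difference was -2.91, with a moderated SE of 0.23 and a moderated 95% interval of -3.44 to -2.38. As a ratio of array signals this is 7.50-fold lower in Ppara-/- cells, and it is the value for which the gene was chosen. Among all 30142 genes no other difference was as far below 0.

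On the Ppara-/- arrays Car2 lay in the middle of the negative controls, with 54.7%, 46.4% and 59.5% of them below it. On the Ppara+/+ arrays 87.8%, 94.1% and 95.7% of the negative controls lay below it, and Ppara+/+ replicate 3 alone passed the 95th percentile. A signal in the middle of the negative controls in Ppara-/- cells leaves the true RNA ratio unmeasured. Bulk RNA also cannot tell fewer Car2-expressing cells apart from less Car2 RNA per cell. Within the Ppara+/+ group Car2 ranged over more than 1 log2 unit, with its lowest value on replicate 1, the array with the highest negative-control median. Relative to the median of its own array's negative controls, Car2 stood at 0.27, -0.16 and 0.48 in Ppara-/- samples and at 2.18, 3.19 and 3.57 in Ppara+/+ samples.

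Leaving out each array in turn gave Car2 differences between -3.17 and -2.65. The first was found without Ppara+/+ replicate 1 and the second without Ppara+/+ replicate 3. Without both arrays of high negative-control median, Ppara+/+ replicate 1 and Ppara-/- replicate 2, the difference was -3.10, and with these 4 arrays limma called 0 of the 30142 genes (2870 at an unadjusted p under 0.05).

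**Figure D1:**
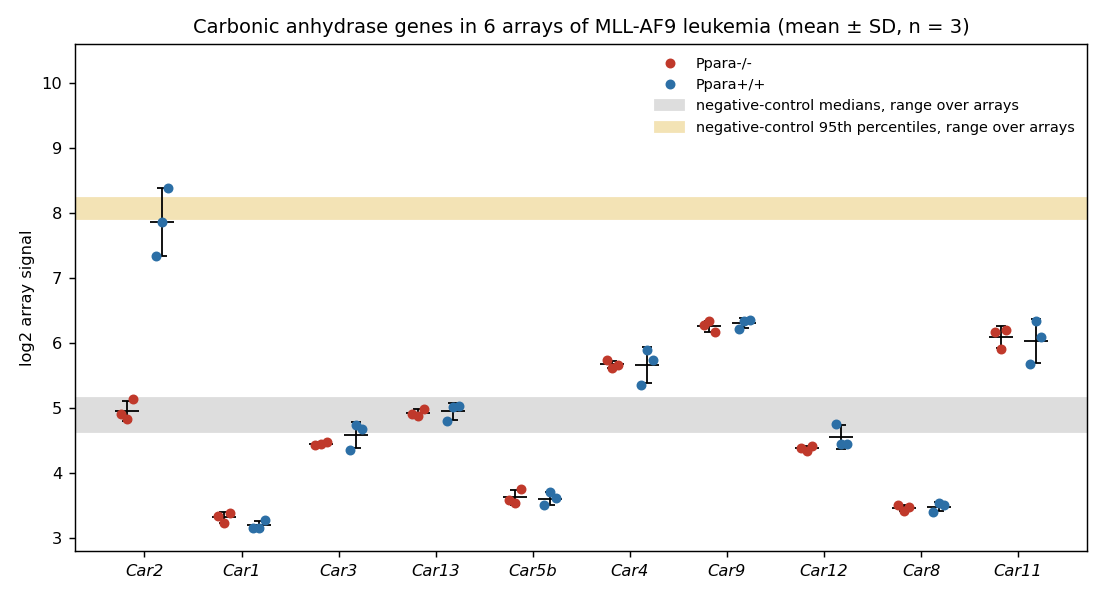
Log2 array signal of the 10 carbonic anhydrase genes, with 1 point per array, Ppara-/- left of Ppara+/+ for each gene, and bars for the mean ± SD (n = 3). The shaded bands show the range over the 6 arrays of the negative-control medians (lower band) and 95th percentiles (upper band). Car2 is at 4.83 to 5.13 in Ppara-/- and 7.34 to 8.38 in Ppara+/+ samples, while the other 9 genes stay between 3.15 and 6.36 in both.

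Of the 10 genes 1, Car2, lay past the threshold used for all genes (limma's moderated test, adjusted p under 0.05), where 0.126% of all genes passed 0.0664% as lower and 0.0597% as higher. Car2 entered the set for this difference, so its place past the threshold was fixed by that choice and is no test of it. The other 9 genes were not chosen for their own values, and 0 of them passed (limma, adjusted p = 0.997 for each, Benjamini-Hochberg over all genes), with 0 of 9 at an unadjusted p under 0.05 as well, against 5.78% of all genes. Their differences were 5 negative and 4 positive, with a median of -0.02 beside 0.02 over all genes. The sign of 5 of the 9 changed in at least 1 alternative fit, so this count is not stable.

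Car1, Car3 and Car13 are the closest to Car2 in place, as cytosolic enzymes whose genes lie next to it on chromosome 3. Car13 was at 4.91, 4.87 and 4.99 in Ppara-/- samples and at 4.80, 5.01 and 5.03 in Ppara+/+ samples. Its groups overlapped, and the log2 difference was -0.02 (SE 0.11, 95% interval -0.27 to 0.22). Car3, an enzyme of low activity that is abundant in muscle and fat, was at 4.43, 4.44 and 4.48 in Ppara-/- samples against 4.36, 4.73 and 4.67 in Ppara+/+ samples. The 3 Ppara-/- values of Car3 lay inside the range of the Ppara+/+ values, with a difference of -0.14 (SE 0.12, interval -0.41 to 0.14). Car1, the other abundant carbonic anhydrase of red cells, was at 3.33, 3.23 and 3.39 in Ppara-/- samples and at 3.16, 3.15 and 3.27 in Ppara+/+ samples. All 6 Car1 values were below the negative-control median of their array, and the difference was 0.12 (SE 0.10, interval -0.10 to 0.35).

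The mitochondrial enzyme gene Car5b, on the X chromosome, was also below the negative-control median on every array. It had 3.58, 3.54 and 3.75 in Ppara-/- samples and 3.50, 3.70 and 3.61 in Ppara+/+ samples, which overlap (log2 difference 0.02, SE 0.11).

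Car4, Car9 and Car12 encode enzymes whose active part faces the outside of the cell. Car4, which is anchored to the membrane by a lipid, was at 5.73, 5.62 and 5.66 in Ppara-/- samples and at 5.36, 5.89 and 5.73 in Ppara+/+ samples, with a difference of 0.01 (SE 0.14). Car9, a target of hypoxia-inducible factors in many tumors, was at 6.27, 6.33 and 6.17 in Ppara-/- samples and at 6.22, 6.33 and 6.36 in Ppara+/+ samples. Both genes were above the negative-control median on all 6 arrays, below its 95th percentile on all 6, and overlapped between the genotypes (Car9 difference -0.05, SE 0.10).

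Car12, a transmembrane enzyme of epithelia, was at 4.39, 4.33 and 4.41 in Ppara-/- samples and at 4.76, 4.44 and 4.45 in Ppara+/+ samples. Here the 3 Ppara-/- values lay below the 3 Ppara+/+ values, with the nearest pair close together, as was so of 3.63% of all genes. The difference of -0.17 (SE 0.12, 95% interval -0.44 to 0.09) was not called by limma (adjusted p = 0.997), and every Car12 value was below the negative-control median of its array. The highest value was that of Ppara+/+ replicate 1.

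Car8 and Car11 encode proteins that keep the carbonic anhydrase fold without the activity, and both are known mainly from the nervous system. Car8 was at 3.50, 3.41 and 3.47 in Ppara-/- samples and at 3.40, 3.54 and 3.51 in Ppara+/+ samples, the narrowest range of the 10 genes, with a difference of -0.02 (SE 0.10). Car11 was at 6.17, 5.90 and 6.20 in Ppara-/- samples and at 5.67, 6.33 and 6.09 in Ppara+/+ samples, with a difference of 0.06 (SE 0.17). In Car11 the lowest and the highest value were both in the Ppara+/+ group.

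The intervals show how large a change in signal remains compatible with these arrays for the 9 genes. The lowest bound was -0.44 for Car12 and the highest 0.45 for Car11, which are 1.36-fold lower and 1.37-fold higher signals in Ppara-/- samples. A missed threshold does not show equal RNA levels, since 4 of the 9 genes were under the negative-control median on every array and 0 of 9 reached the 95th percentile on any array. At such levels a real change in RNA can be hidden by background.

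The 6 other genes of the family had differences between -0.03 (Car14) and 0.04 (Car10). Of these 6, 0 passed (limma, adjusted p = 0.997 each), against 0.126% of all genes. At an unadjusted p under 0.05 there were 0 of the 6, against 5.78%. Their interval bounds ran from -0.35 to 0.37, both those of Car15, and their groups overlapped in all 6. Car7, the cytosolic enzyme of neurons, was at 5.64, 5.59 and 5.53 in Ppara-/- samples and at 5.25, 5.80 and 5.62 in Ppara+/+ samples. Car5a, the liver form of the mitochondrial enzyme, was at 5.73, 5.61 and 5.75 in Ppara-/- samples and at 5.43, 5.88 and 5.85 in Ppara+/+ samples. Of the 15 family genes other than Car2, 11 had their lowest value on Ppara+/+ replicate 1, as did 41.6% of all genes. The part of the higher negative-control median of that array in this was not tested.

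**Figure D2:**
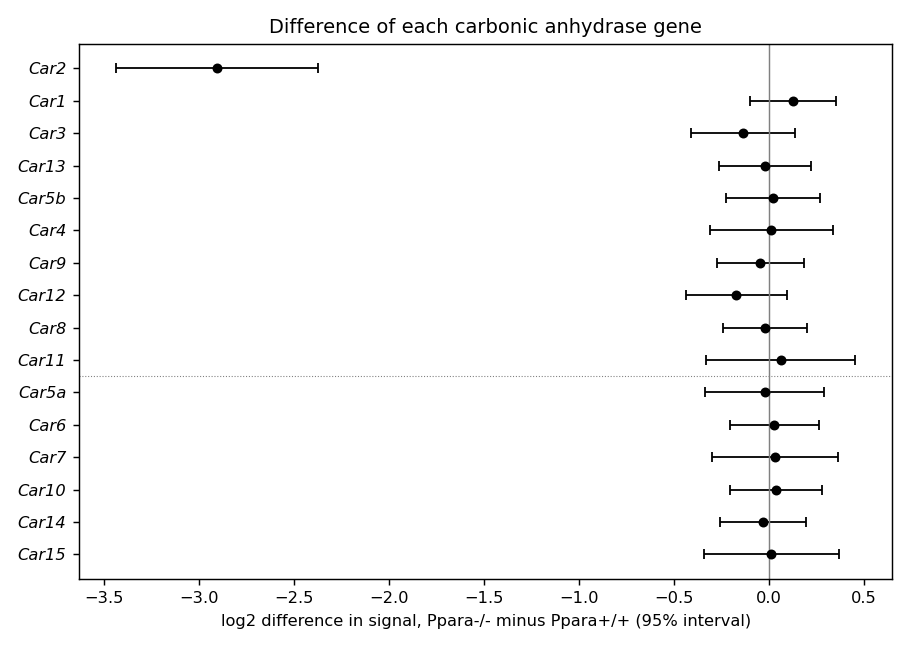
Log2 difference in signal (Ppara-/- minus Ppara+/+) with its 95% interval from limma for 16 carbonic anhydrase genes, the 10 described genes above the dotted line and the 6 others below it. The interval of Car2 runs from -3.44 to -2.38, and those of the other 15 genes all include 0 and stay between -0.44 and 0.45.

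The place of Car2 in the genome allows a comparison with its neighbours. By gene order in RefSeq's table for the mouse assembly GRCm38.p6 (no coordinates were taken from it, since the files name no build), Car13, Car1, Car3 and Car2 follow each other on chromosome 3 with no other protein-coding gene between them. The 6 nearest measured protein-coding genes on the one side of Car2 were Car3, Car1, Car13, Rbis, E2f5 and Lrrcc1, and on the other Gm9733, Gm5150, Ythdf3, Cypt12, Cyp7b1 and Armc1. Of these 12 genes 0 passed the test (limma, adjusted p = 0.982 or higher), against 0.126% of all genes. An unadjusted p under 0.05 was found for 0 of the 12, against 5.78% of all genes. With 12 genes, counts of 0 are near those shares and do not show that the neighbours are unchanged. The differences of the 12 ran from -0.24 for Armc1 to 0.23 for Cypt12, with 9 negative and 3 positive.

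Rbis, which encodes a factor of ribosome biogenesis, and Ythdf3, a reader of methylated adenosine in RNA, had the clearest signals of the 12 neighbours. Rbis was at 8.13, 8.30 and 8.10 in Ppara-/- samples and at 8.78, 8.39 and 7.84 in Ppara+/+ samples (difference -0.16, SE 0.21), and it lay above the 95th percentile of the negative controls on 5 arrays. Ythdf3 was at 8.15, 8.39 and 8.33 in Ppara-/- samples and at 8.74, 8.21 and 8.34 in Ppara+/+ samples (difference -0.14, SE 0.15), above that percentile on all 6. The genotypes overlapped in both genes. Gm9733, the next protein-coding gene beyond Car2, was at 5.58, 5.64 and 5.77 in Ppara-/- samples and at 5.78, 5.93 and 5.69 in Ppara+/+ samples. For Gm5150, 1 of the 12, the 3 Ppara-/- values (5.25, 4.96 and 5.15) lay just below the 3 Ppara+/+ values (5.26, 5.36 and 5.36). This was so of 3.63% of all genes. The difference was -0.21 (SE 0.11), and Gm5150 lay above the negative-control median on 5 arrays and above the 95th percentile on 0.

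**Figure D3:**
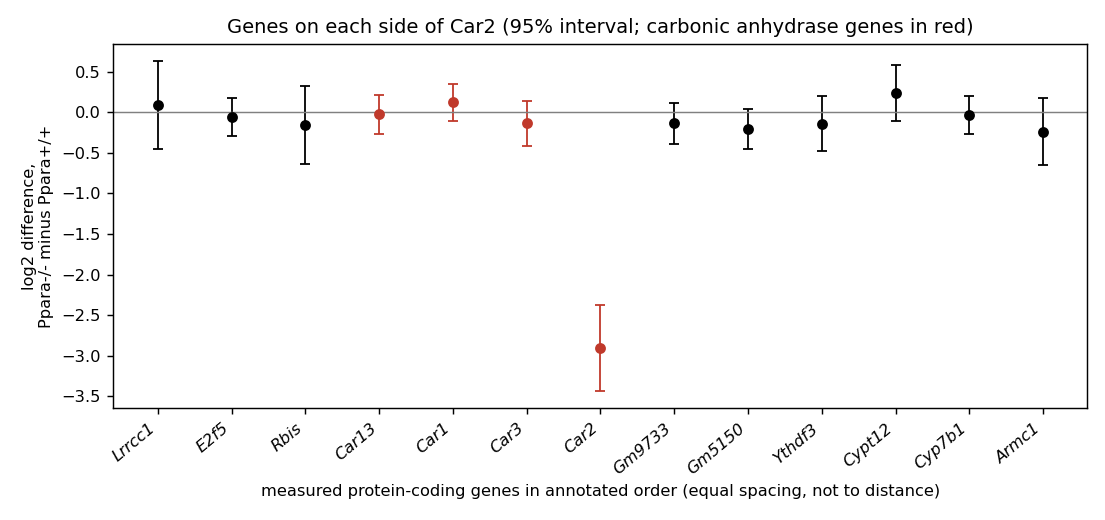
Log2 difference in signal (Ppara-/- minus Ppara+/+) with its 95% interval for Car2 and the 6 nearest measured protein-coding genes on each side of it, in annotated order with equal spacing. Carbonic anhydrase genes are in red. Car2 is at -2.91, and the 12 neighbours lie between -0.24 and 0.23.

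Carbonic anhydrases work with transporters that move bicarbonate, protons and lactate, and these genes were examined as lists. Of 18 measured bicarbonate and anion exchangers (families Slc4 and Slc26), 0 passed, against 0.126% of all genes, with a median difference of 0.04. At an unadjusted p under 0.05 (limma) there were 0 of the 18, against 5.78% of all genes. Slc4a2, the anion exchanger that serves osteoclasts, was at 7.41, 7.30 and 7.47 in Ppara-/- samples and at 7.21, 7.42 and 7.46 in Ppara+/+ samples. Slc4a1, the band 3 exchanger of red cells, was at 5.85, 5.64 and 5.77 in Ppara-/- samples and at 5.48, 5.90 and 5.93 in Ppara+/+ samples. Both overlapped between the genotypes.

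Among 17 proton and lactate exporters and their partners 0 passed, against 0.126% of all genes, with a median of -0.02. At an unadjusted p under 0.05 (limma) there were 3 of the 17, against 5.78% of all genes. The largest of these was Emb, which encodes embigin, a partner of monocarboxylate transporters: it was at 8.77, 8.25 and 8.84 in Ppara-/- samples and at 10.08, 9.33 and 9.10 in Ppara+/+ samples (difference -0.88, SE 0.26, limma adjusted p = 0.478). The others were the sodium-proton exchanger Slc9a9 (difference -0.68, limma adjusted p = 0.798) and the monocarboxylate transporter Slc16a7 (difference -0.35, limma adjusted p = 0.688). With 1 array left out the Slc9a9 difference ran from -0.89 to -0.31. In Emb, Slc9a9 and Slc16a7, 3 of the 17, the Ppara-/- values lay below the Ppara+/+ values, as they did in 3.63% of all genes. Of 24 measured genes of the vacuolar proton pump, which acidifies lysosomes and the bone surface under osteoclasts, 0 passed, against 0.126% of all genes. The median of the 24 was -0.03, and 0 of them had an unadjusted p under 0.05 (limma), against 5.78% of all genes.

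Car9 and Car12 are known to respond to hypoxia, and 27 other genes of that response were measured. None passed (limma), against 0.126% of all genes, and 4 had an unadjusted p under 0.05, against 5.78%. The median difference was 0.00, with 13 negative and 14 positive. The genotypes did not overlap in 7 of the 27, with 3 lower and 4 higher in Ppara-/- samples, against 8.78% of all genes. Egln3, a prolyl hydroxylase induced by hypoxia, came nearest, with 7.93, 8.21 and 7.75 in Ppara-/- samples and 7.22, 6.82 and 7.06 in Ppara+/+ samples (difference 0.93, SE 0.15, limma adjusted p = 0.0909), and it passed in 2 of 16 alternatives. Egln1, a related hydroxylase that marks hypoxia-inducible factors for degradation, had a difference of the other sign (-0.50, adjusted p = 0.438), and the growth factor gene Vegfa and the glycolysis regulator gene Pfkfb3 had differences of 0.29 and 0.33 (adjusted p = 0.797 and 0.806). The lactate dehydrogenase gene Ldha (difference -0.03) and the glucose transporter gene Slc2a1 (difference 0.05) overlapped between genotypes, as Car9 did.

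Since CAR2 is a protein of red cells, osteoclasts and other cells, markers of marrow cells that the sort could hold were set beside it. Among 19 measured erythroid genes 0 passed, against 0.126% of all genes. Of the 19, 0 had an unadjusted p under 0.05 (limma), against 5.78%, and their median difference was 0.01. Their mean signal per array was 5.02 to 5.15 in Ppara-/- samples and 4.90 to 5.19 in Ppara+/+ samples, and none of the 19 reached the 95th percentile of the negative controls on any array. The erythroid regulator Klf1 was at 4.47, 4.47 and 4.61 in Ppara-/- samples and at 4.26, 4.56 and 4.69 in Ppara+/+ samples. Gata1 and the heme enzyme gene Alas2 overlapped between genotypes likewise. Globin genes were not analysed here.

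Of 14 osteoclast genes 0 passed the threshold, against 0.126% of all genes, and the median difference was -0.01. In a list this short, a count of 0 is near that share. At an unadjusted p under 0.05 (limma) there was 1 gene, against 5.78% of all genes. Without overlap, 2 of the 14 were lower in Ppara-/- samples (Itgb3 and Tnfrsf11a), against 3.63% of all genes. Tcirg1 alone was higher without overlap, against 5.15% of all genes. Acp5, the acid phosphatase that marks osteoclasts, was at 7.93, 7.67 and 7.62 in Ppara-/- samples and at 7.52, 7.79 and 7.91 in Ppara+/+ samples, with equal means. The collagen-degrading protease gene Ctsk was below the negative-control medians, at 4.03 to 4.27 in Ppara-/- samples and 3.95 to 4.16 in Ppara+/+ samples. Itgb3, an integrin subunit that platelets share, was the gene with the unadjusted p under 0.05, at 6.91, 6.44 and 6.92 in Ppara-/- samples and at 7.54, 7.14 and 7.38 in Ppara+/+ samples (difference -0.60, limma adjusted p = 0.412).

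Macrophage markers were set beside Car2 in the same way. Of 21 measured genes 2 passed, both lower in Ppara-/- cells, where 0.0664% of all genes passed as lower. With 1 array left out the count was 0 to 3: none passed when Ppara-/- replicate 1 was dropped, 3 did when Ppara+/+ replicate 2 was, and 1 did in each of the other 4 cases. Of the 21, 16 had a negative and 5 a positive difference, and the median was -0.34, beside 0.02 over all genes. In 9 of the 21 every Ppara-/- value lay below every Ppara+/+ value, which was so of 3.63% of all genes. The mean signal of the list per array was 5.84 to 6.18 in Ppara-/- samples and 6.54 to 6.67 in Ppara+/+ samples, without overlap. The median was -0.11 without Ppara+/+ replicate 3 and -0.21 without Ppara-/- replicate 2, and between -0.37 and -0.45 with each other array left out. The list was chosen with results of these arrays known, so its shift is no independent evidence, and its part in the Car2 result was not tested.

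Clec4a1, a lectin of monocytes, fell to 5.03, 5.02 and 5.24 in Ppara-/- samples, against 7.38, 6.72 and 7.43 in Ppara+/+ samples (log2 difference -2.08, SE 0.19, limma adjusted p = 0.00977). Without Ppara-/- replicate 1 its adjusted p was 0.0909, and over all alternatives it ran from 0.00129 to 0.191. Vcam1, an adhesion molecule of marrow macrophages and stroma, fell to 5.83, 6.17 and 5.79 in Ppara-/- samples, against 7.29, 7.65 and 7.01 in Ppara+/+ samples (difference -1.39, SE 0.18, limma adjusted p = 0.0364). Its call was lost with any array but Ppara+/+ replicate 2 left out, with adjusted p between 0.0521 and 0.227, and over all alternatives it ran from 0.00735 to 0.229. Lpl (difference -1.05, limma adjusted p = 0.0686) and Cd68 (-0.73, adjusted p = 0.135) were also lower without overlap but did not pass. They passed in 4 of 16 and 1 of 17 alternatives. Fn1 (-2.02), Ctss (-1.39), Csf1r (-0.94), Adgre1 (-0.66) and Msr1 (-0.57) were lower without overlap too, but none passed (limma adjusted p between 0.135 and 0.361). With Clec4a1 and Vcam1 these make up the 9 of 21 genes without overlap, while 5 of 21 had a positive difference, the largest 0.23. The macrophage genes C1qa, C1qb, C1qc, Mertk, Mrc1 and Marco overlapped between genotypes and lay between 3.71 and 6.20.

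In the lists of other marrow cells 0 genes passed limma's test, against 0.126% of all genes. The medians were 0.08 for 11 megakaryocyte genes and 0.06 for 14 eosinophil, basophil and mast cell genes. They were 0.02 for 15 lymphoid genes and 0.04 for 14 stromal and endothelial genes. At an unadjusted p under 0.05 these lists held 0, 2, 1 and 1 genes, against 5.78% of all genes. Pdgfrb, a growth factor receptor of pericytes and fibroblasts, was at 5.79, 5.44 and 5.90 in Ppara-/- samples and at 6.95, 6.53 and 6.73 in Ppara+/+ samples. Its genotypes did not overlap (difference -1.03, SE 0.16, limma adjusted p = 0.0698), and it passed in 3 of 16 alternatives. Siglecf, a lectin of eosinophils, was at 7.45, 7.41 and 7.07 in Ppara-/- samples and at 8.43, 7.73 and 8.02 in Ppara+/+ samples, without overlap (difference -0.75, SE 0.19, limma adjusted p = 0.312). Cpa3, the mast cell carboxypeptidase that progenitors also express, was at 5.26, 3.88 and 6.08 in Ppara-/- samples and at 6.54, 7.17 and 6.40 in Ppara+/+ samples, which do not overlap (difference -1.63, SE 0.48, limma adjusted p = 0.493). Siglecf and Cpa3 were the 2 of 14 genes of their list that were lower without overlap, against 3.63% of all genes. In the same list 11 of the 14 differences were positive, and 0 genes were higher without overlap. The largest positive differences were those of Mcpt8 (0.64) and Epx (0.59), whose genotypes overlapped.

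Of the 19 myeloid leukemia markers 0 passed (limma), against 0.126% of all genes, with a median of -0.02. Of the 19, 5 had an unadjusted p under 0.05, against 5.78% of all genes. The 5 had differences of both signs. Over the whole list of 19, 2 genes were lower in Ppara-/- samples without overlap, against 3.63% of all genes. Another 4 were higher without overlap, against 5.15% of all genes. The homeobox gene Hoxa5, which MLL fusions are known to activate, was at 9.25, 9.50 and 9.27 in Ppara-/- samples and at 9.07, 8.10 and 8.21 in Ppara+/+ samples (difference 0.88, limma adjusted p = 0.393). Its limma adjusted p was 0.0224 without Ppara+/+ replicate 1 and 0.494 to 0.932 with any other array left out. Hoxa5 passed in 2 of 17 alternatives. The receptor genes Kit (difference 0.54, adjusted p = 0.546) and Csf3r (0.37, adjusted p = 0.470) and the homeobox gene Hoxa10 (0.35, adjusted p = 0.552) were also above 0. The progenitor marker Cd34 was at 7.89, 6.50 and 7.99 in Ppara-/- samples and at 8.22, 8.37 and 8.41 in Ppara+/+ samples. Its difference was -0.87 (limma adjusted p = 0.797), and between -1.14 and -0.39 with 1 array left out.

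**Figure D4:**
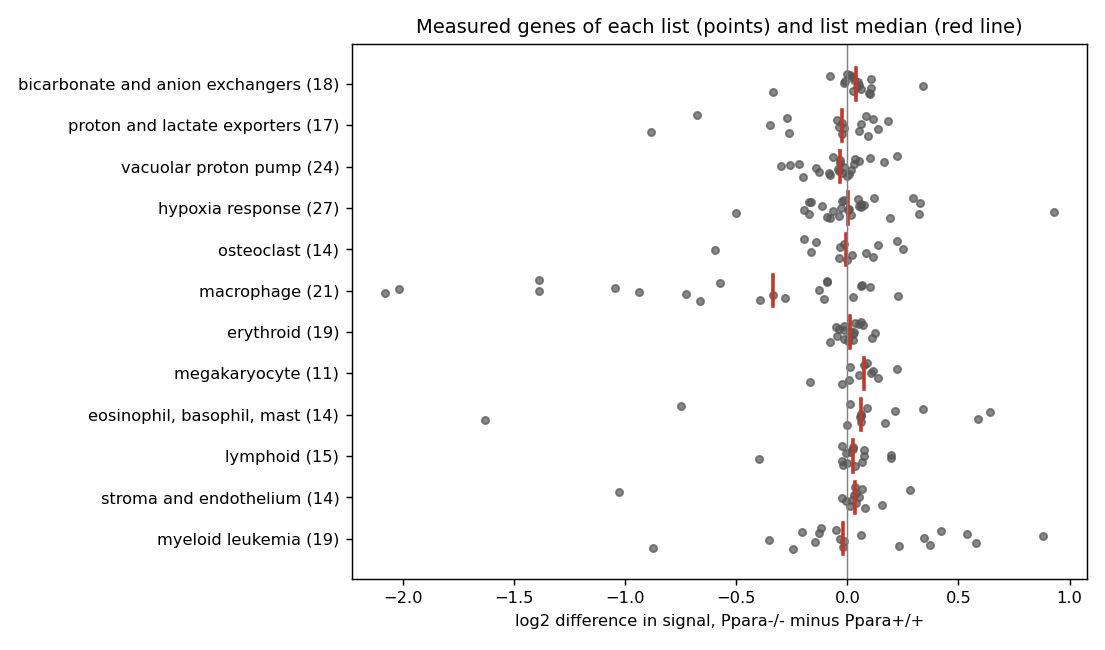
Log2 difference in signal (Ppara-/- minus Ppara+/+) of each measured gene in 12 lists, with the number of genes in parentheses and the list median as a red line. Car2 is in none of them. The macrophage list has a median of -0.34, and the other 11 medians lie between -0.03 and 0.08.

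The genes whose pattern over the 6 arrays was most like that of Car2 were taken by Pearson's r among 268 named genes with an SD over the arrays of at least 0.5. They were Pbx3 (r = 0.99), a homeobox cofactor of HOX proteins, the germ cell gene Tex14 (0.99), the zinc finger gene Zfp182 (0.97), the chemokine gene Ccl6 (0.96) and Clec4a1 (0.96). These arrays fall into 2 genotypes and Car2 separates them, so any gene that separates them in the same direction has a high r. Within the genotypes the r of the deviations from the group means was 0.90 for Pbx3, 0.78 for Tex14, 0.56 for Zfp182, 0.23 for Ccl6 and 0.14 for Clec4a1. The genes were picked by their r over the same 6 arrays, so these values are no independent evidence of a shared pattern. Pbx3 was at 6.19, 6.33 and 6.32 in Ppara-/- samples and at 7.74, 7.99 and 8.12 in Ppara+/+ samples. In Car2, Pbx3 and Tex14, Ppara+/+ replicate 1 was the lowest and Ppara+/+ replicate 3 the highest of the Ppara+/+ values, whereas Clec4a1 was lowest on Ppara+/+ replicate 2.

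**Figure D5:**
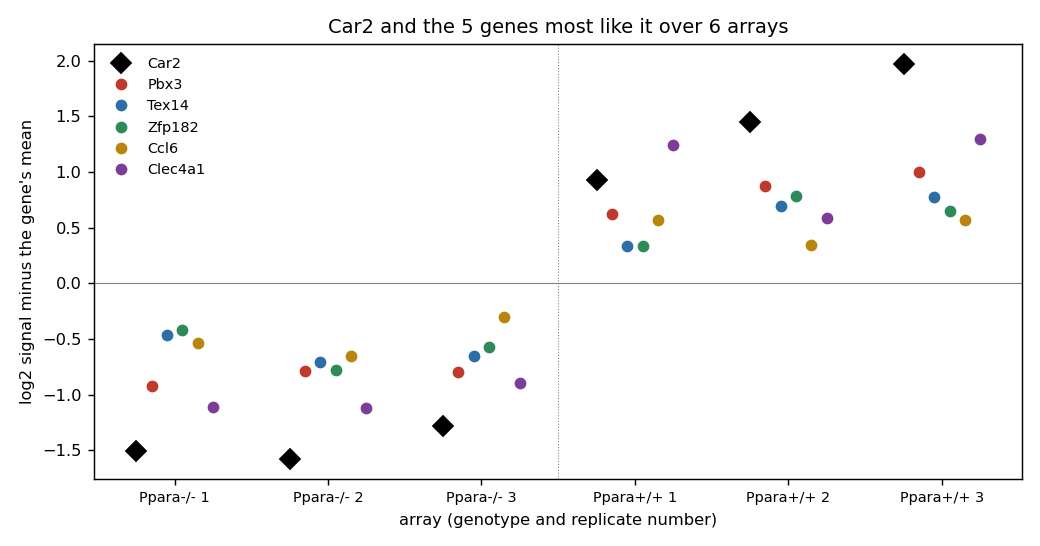
Log2 signal minus the gene's own mean over the 6 arrays, for Car2 (diamonds) and the 5 genes with the highest Pearson's r with it, by array, Ppara-/- left of Ppara+/+. All 6 genes are below their mean on the Ppara-/- arrays and above it on the Ppara+/+ arrays.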

How the data were processed

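The values deposited by the authors are log2 signals per probe set. RMA and limma are credited to the submitters' processing notes. RMA normally includes quantile normalization, which would hide a shift of most genes in 1 direction. Of 72688 rows, 6732 were controls (5222 negative) and 30604 had exactly 1 gene symbol in the platform annotation, updated by gene ID through RefSeq. Each of the resulting 30142 genes was represented by its probe set of highest mean. Arrays were grouped by title. The fit was made in limma 3.58.1 (R 4.3.3) with lmFit and eBayes, two-sided, without covariates, Benjamini-Hochberg adjusted over all genes, at a threshold of 0.05 with 95% intervals, after a check on simulated data. Python 3.11.15 with pandas 2.3.3 wrote the tables, and matplotlib 3.10.9 the plots. The number of arrays limits precision.

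Genes, lists and tests were chosen with earlier results of these data known. The rule named the 10 genes, the other family genes, 6 neighbours on each side, up to 4 genes per list by smallest p, and the 5 genes most like Car2 (gene models, small RNAs, olfactory and vomeronasal genes left out). Genes outside that rule were named for their known roles: Acp5, Ctsk, Klf1, Gata1, Slc4a1, Slc4a2, Ldha, Slc2a1, Mpo, C1qa, C1qb, C1qc, Mertk, Mrc1 and Marco. Cd34, Ctss, Fn1, Msr1, Adgre1 and Csf1r were named after their values were seen. Same-numbered arrays were not treated as pairs (correlations of their deviations -0.33, -0.47 and 0.11). Alternatives were another prior, other normalizations, filters on dim genes, probe set averages, array weights, a replicate block, a background covariate, another threshold and arrays left out.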

Additional observations from a re-analysis of the deposited data

How the results depend on the processing

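The Car2 difference stayed between -3.18 and -2.65 in the 16 alternatives that kept the gene. Car2 was chosen by this difference, so its calls say nothing of stability. The count of the 10 genes past the threshold was 0 without the 2 arrays of highest negative-control median, where limma called 0 genes in all (2870 at an unadjusted p under 0.05). With genes filtered on the 95th percentile of the negative controls, none of the 10 was left, and on their median 5 were. None of the 9 relatives passed in any alternative that kept it. But 5 of them changed sign in at least 1 (Car4, Car5b, Car8, Car11 and Car13), so no direction is claimed for these. The median of the 9 lay between -0.09 and 0.02. The count of all called genes was 38, and depended on the setting: 70 with a trended and robust prior, 23 after quantile normalization, 13 with median-centred arrays, 14 after cyclic loess, 1 with the filter on the 95th percentile, 271 with array weights and 76 at an adjusted p under 0.1. With 1 array left out it was 6 to 38. With the replicate number as a block it was 12. The cause of these shifts was not tested, except that fewer arrays or genes enter where either was left out. Detection calls were not used here, and the dim signals of the 9 relatives limit what can be said of their RNA.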
